A study of Mus musculus with 20 samples.

Results

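Genes were sought whose difference between portal and stellate cells of the mouse liver kept its direction when the cells were taken from the fresh state into culture. The measure was the main effect of origin, which is the mean of the portal groups PMSCs and PMSC-MFs-7d against the mean of the stellate groups HSCs and HSC-MFs-7d, on the log2 scale. A gene was a member when this effect had an adjusted p under 0.05 in edgeR and the difference had the same sign in the fresh pair (PMSCs against HSCs) and in the cultured pair (PMSC-MFs-7d against HSC-MFs-7d). Of 24848 genes in the tables, 14751 passed the filter on low counts and were tested. The main effect was called in 9864 of them, or 66.9%, and 6963 of these were members. Among the members 3295 genes (22.3% of tested genes) were higher with portal origin and 3668 (24.9%) were lower. At the edge of the threshold, Rpain was a member with a main effect of 0.32 ± 0.14 (SE, adjusted p = 0.0499), and Phf21b was not, with -0.81 ± 0.35 (adjusted p = 0.0502).

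All cells came from the liver of C57BL/6 mice. PMSCs are labelled as portal mesenchymal stem cells and HSCs as hepatic stellate cells, and the labels name no culture for either, so they are called fresh below. PMSC-MFs-7d are myofibroblasts derived from PMSCs at day 7 of culture, and HSC-MFs-7d are myofibroblasts derived from HSCs, at day 7 by the sample titles but at day 3 by the design text of the series, so the culture time of this group is uncertain. The remaining group, PMSC-MFs-3d, holds portal myofibroblasts at day 3 and did not enter the rule. Each group held 4 libraries, 20 in all. No genotype, transgene or drug is named, the age and sex of the mice and the way the cells were isolated are not given in the sources used here, and the labels are silent on whether replicate libraries stem from different mice or dishes. The p-values therefore measure the spread between these libraries, which may be technical.

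Portal fibroblasts lie in the connective tissue around the portal vein, bile ducts and hepatic artery, where they make the collagen and elastic fibres of the portal tract. Hepatic stellate cells lie along the sinusoids, store vitamin A as retinyl esters and act as pericytes of the sinusoidal wall. Both can become myofibroblasts, which are contractile cells that deposit scar matrix.

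Summed expected counts per library, the estimated reads of all genes, ranged from 11810532 to 26675589. Levels below are CPM, which are counts relative to TMM-scaled library sizes, given as mean ± SD over 4 libraries, and differences are log2 fold changes, portal over stellate, ± SE. The biological coefficient of variation was 28.8% in PMSCs and 27.6% in HSCs, and 19.6% in PMSC-MFs-7d and 7.88% in HSC-MFs-7d. Every pair of libraries within a group differed by more than sampling noise, with a mean chi-square per gene of 3.5 or more. Slit2 and Thy1, taken as portal markers, were higher in the portal group, and Reln and Rgs5, taken as stellate markers, in the stellate group, with no overlap between libraries in either pair. These 4 genes were taken with earlier results of these libraries known, so their side is no independent check of the groups. The fresh HSC libraries also held macrophage, endothelial and hepatocyte transcripts and the PMSC libraries Schwann cell and mesothelial ones, whose sums are given below. In bulk libraries fewer cells of a type and less RNA per cell cannot be told apart.

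The promoters of 4 genes that carried the difference through culture are shown to give the sequence next to a listed start of each. They are the 250 bases before a transcription start listed by RefSeq for GRCm38.p6, the assembly behind mm10. The RefSeq span of Slit2 begins further upstream, at chr5:47981291, so its window lies inside the gene. The windows of Reln, Rgs5 and Bmp10 abut the spans of their genes. Capitals mark 3 short motifs on either strand. The first is TATAAA, the core of the box bound by the general transcription machinery. The second is GGGCGG, known as the Sp1 box. The third is AGATAA, a form of the motif of zinc finger factors of blood and endothelium. Only these 3 motifs were searched, and overlapping copies are run together. The Slit2 window is chr5:47982905-47983154 on the plus strand, the Reln window chr5:22344706-22344955 on the minus strand, the Rgs5 window chr1:169655251-169655500 and the Bmp10 window chr6:87428744-87428993, both on the plus strand.
Slit2: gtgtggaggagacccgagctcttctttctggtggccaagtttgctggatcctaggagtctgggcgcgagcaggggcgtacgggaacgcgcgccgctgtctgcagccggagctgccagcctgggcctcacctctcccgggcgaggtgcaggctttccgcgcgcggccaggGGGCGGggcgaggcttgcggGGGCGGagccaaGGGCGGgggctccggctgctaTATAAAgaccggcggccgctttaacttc
Reln: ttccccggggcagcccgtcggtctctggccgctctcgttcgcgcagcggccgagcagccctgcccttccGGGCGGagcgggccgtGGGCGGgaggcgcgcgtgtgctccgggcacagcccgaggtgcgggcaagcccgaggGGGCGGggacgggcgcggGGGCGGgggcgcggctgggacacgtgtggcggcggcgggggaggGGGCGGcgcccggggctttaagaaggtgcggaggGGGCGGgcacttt
Rgs5: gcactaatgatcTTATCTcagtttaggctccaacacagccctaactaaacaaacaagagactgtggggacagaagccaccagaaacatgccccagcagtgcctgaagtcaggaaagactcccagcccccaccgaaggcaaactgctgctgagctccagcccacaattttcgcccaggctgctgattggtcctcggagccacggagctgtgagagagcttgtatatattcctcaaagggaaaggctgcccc
Bmp10: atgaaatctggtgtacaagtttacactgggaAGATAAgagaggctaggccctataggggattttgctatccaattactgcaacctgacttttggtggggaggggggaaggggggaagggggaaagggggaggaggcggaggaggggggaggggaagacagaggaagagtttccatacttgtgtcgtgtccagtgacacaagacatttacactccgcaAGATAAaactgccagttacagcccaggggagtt

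The 4 windows differ in base composition. The Slit2 window holds 25 CpG dinucleotides, 3 copies of GGGCGG and 1 of TATAAA, and the Reln window holds 37 CpG dinucleotides and 6 copies of GGGCGG. The Rgs5 window holds 4 CpG dinucleotides and 1 AGATAA, and the Bmp10 window 3 CpG dinucleotides and 2 AGATAA, neither with GGGCGG. Over the 9159 tested genes with 1 listed start, 58.6% of windows held GGGCGG, 6.91% TATAAA and 5.92% AGATAA, and the median was 15 CpG dinucleotides. Among genes lower with portal origin by at least 4 on the log2 scale in both pairs, 88 had such a window, of which 28.4% held GGGCGG, 13.6% TATAAA and 12.5% AGATAA, with a median of 4 CpG dinucleotides. Among those higher by as much, 74 had a window, of which 48.6% held GGGCGG, 17.6% TATAAA and 10.8% AGATAA, with a median of 8. These shares describe letters in a window and are no evidence of binding.

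Across all tested genes the origin difference was larger before culture than after it. The fresh pair was called in 10872 genes (73.7%) and the cultured pair in 6941 (47.1%), and the median size of the difference was 0.9 in the fresh pair and 0.45 in the cultured pair on the log2 scale. The sign was the same in both pairs in 8124 genes, or 55.1%. Of 5305 genes called in each pair on its own, 3369 (63.5%) kept their direction and 1936 turned it, 951 of them higher in PMSCs and lower in PMSC-MFs-7d and 985 the other way. The 2 pairs share no library. Across genes, which are not independent replicates, the fresh and cultured differences had a Pearson r of 0.358 and a Spearman rho of 0.228.

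**Figure D1:**
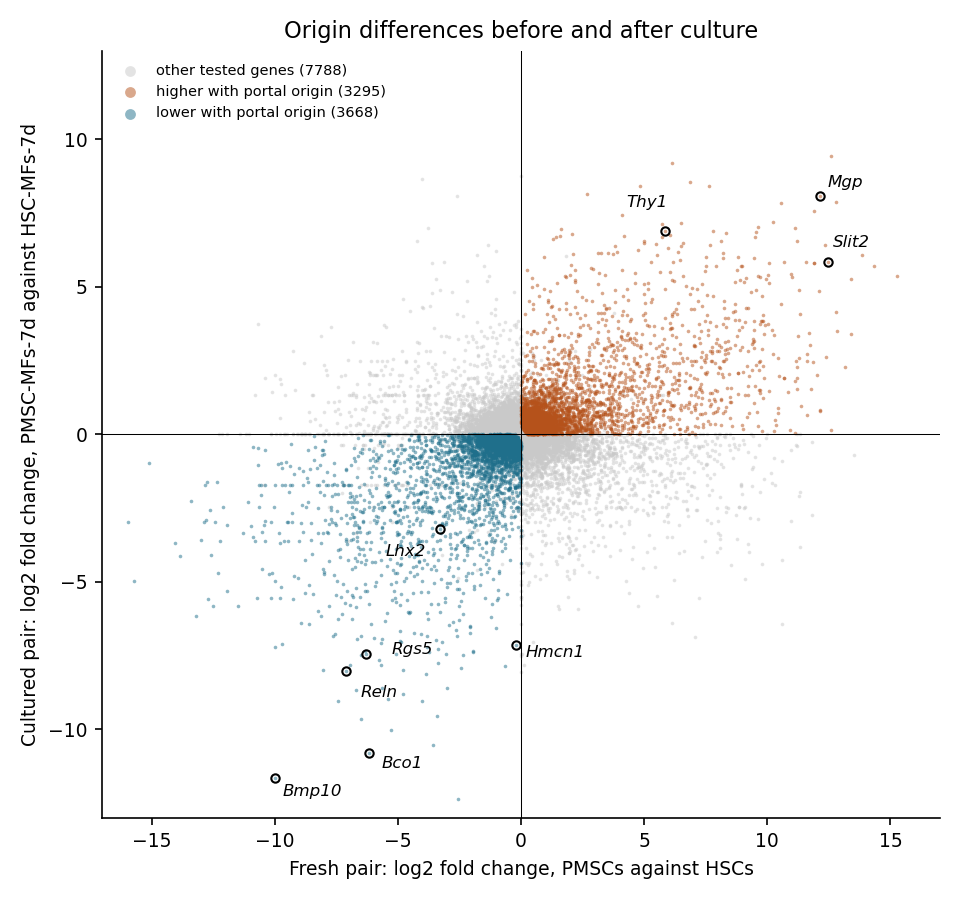
Each point is a tested gene, with the log2 fold change of the fresh pair (PMSCs against HSCs) on the horizontal axis and of the cultured pair (PMSC-MFs-7d against HSC-MFs-7d) on the vertical axis. The 3295 members higher with portal origin lie in the upper right quadrant and the 3668 lower members in the lower left, and genes close to an axis, such as Hmcn1, have a difference near 0 in one of the pairs.

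A main effect can be called through a single pair. Of the members, 1214 of those higher and 1640 of those lower with portal origin were not called in the cultured pair on its own, and 477 and 436 were not called in the fresh pair. Genes called in each pair in one direction were therefore counted apart: 1696 were higher in portal cells in both pairs (11.5% of tested genes) and 1673 were lower in both (11.3%). A difference of at least 4 on the log2 scale in both pairs was held by 117 of the higher and 138 of the lower genes. With library totals in place of TMM scaling, the median main effect of all genes moved from -0.05 to -0.22, and the members were 2582 higher and 4402 lower (37.0% higher, against 47.3% with TMM). With limma on log2(TPM + 1) the median was -0.21 and the members were 2514 higher and 4773 lower (34.5% higher).

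Slit2, a secreted ligand of the Robo receptors, was present in portal cells at every time and nearly absent from fresh stellate cells. It measured 126, 123, 172 and 58.7 CPM in the 4 PMSC libraries, 278, 59.8, 124 and 143 CPM in PMSC-MFs-7d and 156, 149, 149 and 159 CPM in PMSC-MFs-3d. In HSC-MFs-7d it measured 2.37, 1.77, 3.27 and 3.19 CPM, and in HSCs a single count was found in 1 library of the 4. The lowest portal library, a PMSC one at 58.7 CPM, lay above the highest stellate library at 3.27 CPM. The fresh ratio of group counts was 7546 (95% counting interval 1354 to 298100), and the cultured log2 fold change was 5.85 ± 0.42 (adjusted p = 1.4e-09). Leaving out HSCs replicate 3, which holds the single count, moved the main effect from 9.16 to 10.05.

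Thy1, a surface glycoprotein used to sort portal fibroblasts, was higher in portal cells in both pairs. It measured 185, 111, 144 and 65.9 CPM in PMSCs and 2.96, 1.79, 1.32 and 2.75 CPM in HSCs, a log2 fold change of 5.85 ± 0.43 (adjusted p = 4.0e-10). In the cultured pair it measured 481, 374, 498 and 627 CPM in PMSC-MFs-7d and 7.83, 1.37, 4.84 and 2.6 CPM in HSC-MFs-7d, a log2 fold change of 6.90 ± 0.43 (adjusted p = 2.2e-10). The lowest library of these portal groups stood at 65.9 CPM and the highest stellate one at 7.83 CPM.

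Reln encodes reelin, a large secreted glycoprotein that binds the receptors Vldlr and Lrp8. It was among the strongest stellate genes in both states. HSCs held 4725, 7219, 7948 and 6300 CPM and HSC-MFs-7d 205, 227, 216 and 222 CPM, against 73.1, 36.2, 25.4 and 54.5 CPM in PMSCs and 0.217, 1.3, 0.99 and 0.848 CPM in PMSC-MFs-7d. Both cultured groups held less than their fresh counterparts, and the difference of -7.11 ± 0.35 in the fresh pair stood at -8.02 ± 0.40 in the cultured pair, a change that was not called (adjusted p = 0.09).

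Rgs5, a regulator of G protein signalling found in pericytes, followed the same course. It measured 3494, 4774, 5324 and 4760 CPM in HSCs and 77.4, 44.3, 45.3 and 69 CPM in PMSCs. In culture it measured 121, 145, 169 and 137 CPM in HSC-MFs-7d and 0.869, 0.652, 0.916 and 0.778 CPM in PMSC-MFs-7d. The origin difference grew from -6.28 ± 0.30 to -7.46 ± 0.34 on the log2 scale (adjusted p of the change = 0.016). Whether this call of a change holds for Rgs5 under other scalings was not tested. Of all 731 members with a larger difference in culture, 367 were kept with library totals.

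**Figure D2:**
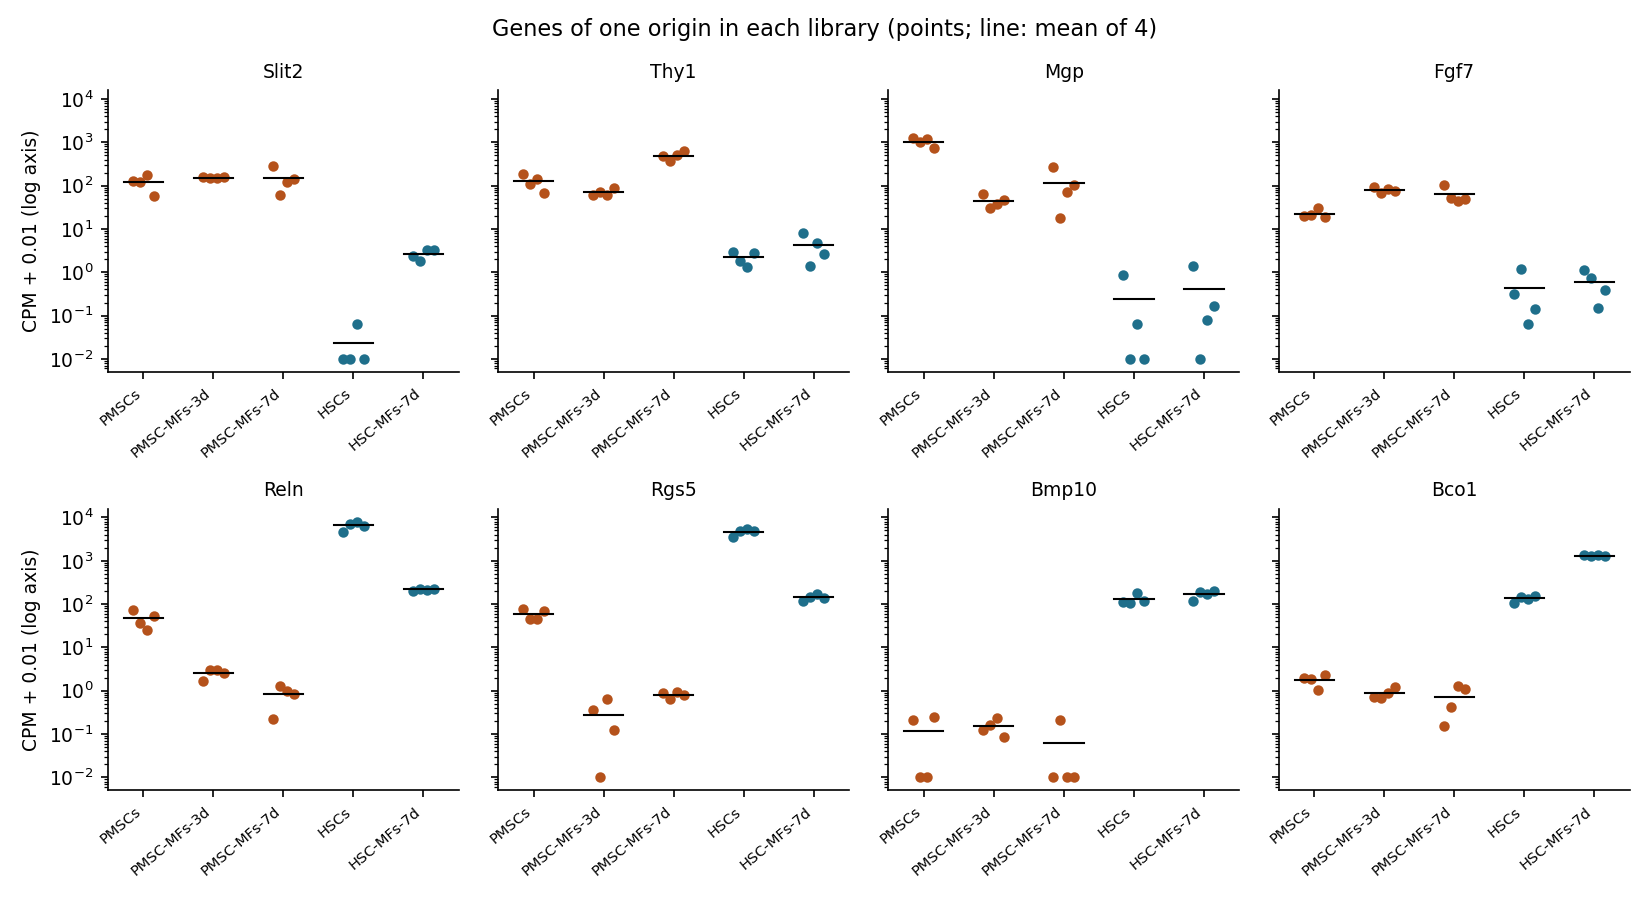
CPM + 0.01 on a log axis in each of the 20 libraries for 8 genes, with portal groups in brown, stellate groups in blue, a point per library and a line at the mean of 4. In each panel the portal libraries lie wholly on one side of the stellate libraries in both states, which the ranking of the named genes required for all but Fgf7. The stellate level of Slit2 was a single count in HSCs and 1.77 to 3.27 CPM in HSC-MFs-7d.

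The genes with the largest difference held in both pairs and higher with portal origin included, by the size of the smaller difference, Mgp, Vit, Igfbp6, Fmod, Hspb7, Col15a1, Eln, Ackr3, Tenm3, Thy1 and Slit2. Several encode matrix proteins or regulators of it. Genes of this ranking and of the stellate one below were taken only if portal and stellate libraries did not overlap in either pair. Lack of overlap is therefore no finding for them. Mgp encodes an inhibitor of calcification and measured 1228, 1020, 1163 and 735 CPM in PMSCs and 0.845, 0, 0.055 and 0 CPM in HSCs. In culture it measured 262, 17.4, 71.6 and 105 CPM in PMSC-MFs-7d and 1.37, 0, 0.0681 and 0.159 CPM in HSC-MFs-7d. PMSC-MFs-7d replicate 2 was the lowest of its group for Mgp and still above the highest stellate library. The log2 fold change was 12.13 ± 0.98 fresh and 8.09 ± 0.86 cultured, and the main effect of 10.11 became 11.69 without HSCs replicate 1 and 11.30 without HSC-MFs-7d replicate 1, the stellate libraries with the highest Mgp.

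Eln, which encodes elastin, was carried by all fresh portal libraries at 868, 810.0, 1105 and 1128 CPM against 7.18, 19.8, 16 and 16.1 CPM in HSCs. In PMSC-MFs-7d it measured 191, 3.83, 118 and 102 CPM, so replicate 2 stood far below the other 3 libraries, and in HSC-MFs-7d it measured 2.84, 0.203, 0.409 and 0.266 CPM. The groups did not overlap, as the ranking required, and the log2 fold change was 6.05 ± 0.77 fresh and 6.76 ± 0.90 cultured. The main effect of 6.41 became 7.27 without HSC-MFs-7d replicate 1. Fmod, the collagen-binding proteoglycan fibromodulin, measured 2147 ± 549.6 CPM in PMSCs and 0.922 ± 0.793 in HSCs, and 56.3 ± 49.2 in PMSC-MFs-7d and 0.431 ± 0.286 in HSC-MFs-7d. Its difference fell from 11.14 ± 0.70 to 6.98 ± 0.67. Vit, the matrix protein vitrin, measured 255 ± 96.2 CPM in PMSCs and 62 ± 17.7 in PMSC-MFs-7d, against 0.155 ± 0.229 in HSCs and 0.266 ± 0.268 in HSC-MFs-7d. Igfbp6, a binding protein of insulin-like growth factors, differed by 10.23 ± 0.55 fresh and 7.21 ± 0.51 cultured. The main effect of Vit moved from 9.20 to 10.12 without HSCs replicate 3 and that of Igfbp6 from 8.72 to 9.82 without HSC-MFs-7d replicate 1.

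Hspb7, a small heat shock protein of muscle, measured 29.3, 46.3, 23.9 and 25.2 CPM in PMSCs, 178, 207, 215 and 213 CPM in PMSC-MFs-3d and 163, 193, 251 and 218 CPM in PMSC-MFs-7d. In HSC-MFs-7d it measured 3.68, 0.659, 0.818 and 1.65 CPM and in fresh HSCs only replicate 2 held counts (0.536 CPM). Without that library the main effect of Hspb7 was 9.61 in place of 7.34. Tenm3, a teneurin cell adhesion protein, differed by 6.45 ± 0.44 and 5.91 ± 0.44. Ackr3, a scavenging receptor of the chemokine Cxcl12, differed by 7.52 ± 0.37 and 6.01 ± 0.38, and its ligand Cxcl12 ran the opposite way, at -0.66 ± 0.19 and -0.78 ± 0.19.

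The 12 largest genes on the stellate side were Bmp10, Reln, Plvap, Hcls1, Rgs5, Bco1, Rgs4, Arap3, Esam, Naip2, Tmem56 and Rspo3. Bmp10, a circulating ligand of the receptor Acvrl1, measured 111, 108, 176 and 121 CPM in HSCs and 120.0, 195, 169 and 197 CPM in HSC-MFs-7d. In PMSCs it measured 0.2, 0, 0 and 0.232 CPM and in PMSC-MFs-7d 0, 0.204, 0 and 0 CPM. All stellate libraries stood at 108 CPM or more and all portal libraries at 0.232 CPM or less. The log2 fold change was -9.99 ± 0.42 fresh and -11.66 ± 0.43 cultured, and the main effect of -10.82 became -12.37 without PMSC-MFs-7d replicate 2, the only library of its group with counts.

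Bco1, the enzyme that cleaves beta-carotene into retinal, was a stellate gene with a larger difference in culture. It measured 108, 145, 133 and 154 CPM in HSCs and 1350, 1285, 1352 and 1263 CPM in HSC-MFs-7d, against 2, 1.89, 1.04 and 2.27 CPM in PMSCs and 0.145, 0.408, 1.25 and 1.06 CPM in PMSC-MFs-7d. The difference grew from -6.17 ± 0.29 to -10.82 ± 0.34 (adjusted p of the change = 2.4e-08). Rspo3, a secreted enhancer of Wnt signalling, measured 270.0, 382, 393 and 372 CPM in HSCs and 18.2, 13.3, 16.7 and 18.5 CPM in PMSCs. It measured 43, 53.5, 60.8 and 53.3 CPM in HSC-MFs-7d and 4.53, 1.63, 1.47 and 1.7 CPM in PMSC-MFs-7d, and its difference was -4.41 ± 0.24 fresh and -4.49 ± 0.26 cultured. Rgs4, a relative of Rgs5, differed by -5.45 ± 0.29 and -6.07 ± 0.31.

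**Figure D3:**
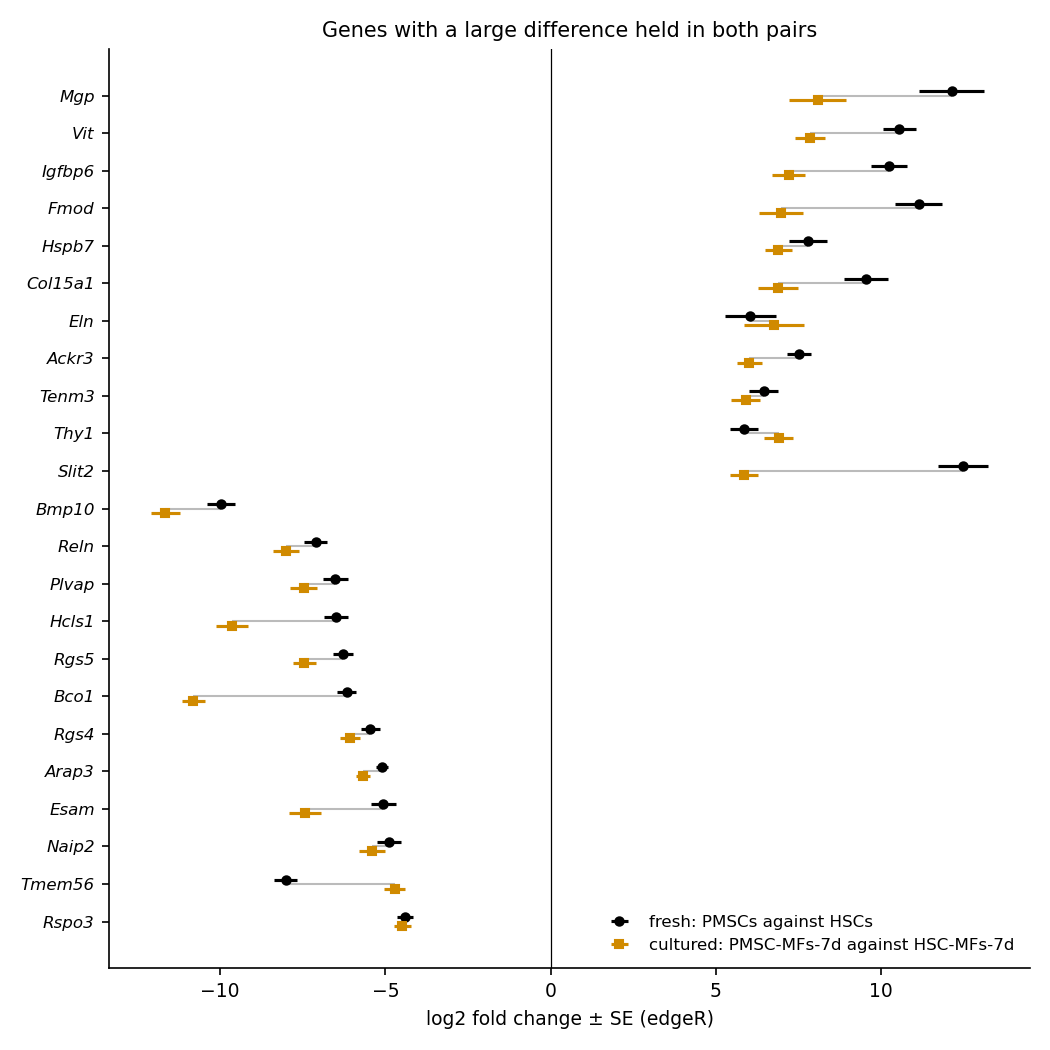
Log2 fold change, portal over stellate, ± SE in edgeR for the genes named above in each direction, with circles for the fresh pair and squares for the cultured pair. Fmod and Slit2 lie closer to 0 in the cultured pair, Bco1 and Hcls1 lie further from it, and for Tenm3 and Rspo3 the change was not called. The fitted value of Slit2 in the fresh pair rests on 1 count in HSCs and is no bound.

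Each list below is described by its genes called in each pair in one direction, against 11.5% higher and 11.3% lower over all tested genes, where the median difference was -0.1 fresh and 0 cultured. Of 27 portal fibroblast markers, 19 were higher in portal cells in both pairs and 0 were lower, with a median of 7.24 fresh and 3.75 cultured. They include Cd34, a sialomucin of stromal progenitors, at 7.24 ± 0.34 and 3.75 ± 0.36. Pdgfra, Dcn and Lum, which are also listed, were not members. Of 29 stellate markers, 20 were lower in portal cells in both pairs and 2 were higher, with a median of -3.28 fresh and -3.02 cultured. The 2 exceptions were Cygb, the globin cytoglobin, at 1.89 ± 0.39 and 2.70 ± 0.53, and Pdgfrb, a receptor of platelet-derived growth factor, at 0.50 ± 0.16 and 0.42 ± 0.16. Pdgfrb was near the threshold: its fresh difference was 0.16 (adjusted p = 0.33) with library totals, and its cultured call was lost without PMSC-MFs-7d replicate 1, 3 or 4 or HSC-MFs-7d replicate 1, 2 or 3 (0.33 to 0.43, adjusted p from 0.059 to 0.12). Both marker lists were drawn up with earlier results of these libraries known, so their direction is no independent evidence.

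**Figure D4:**
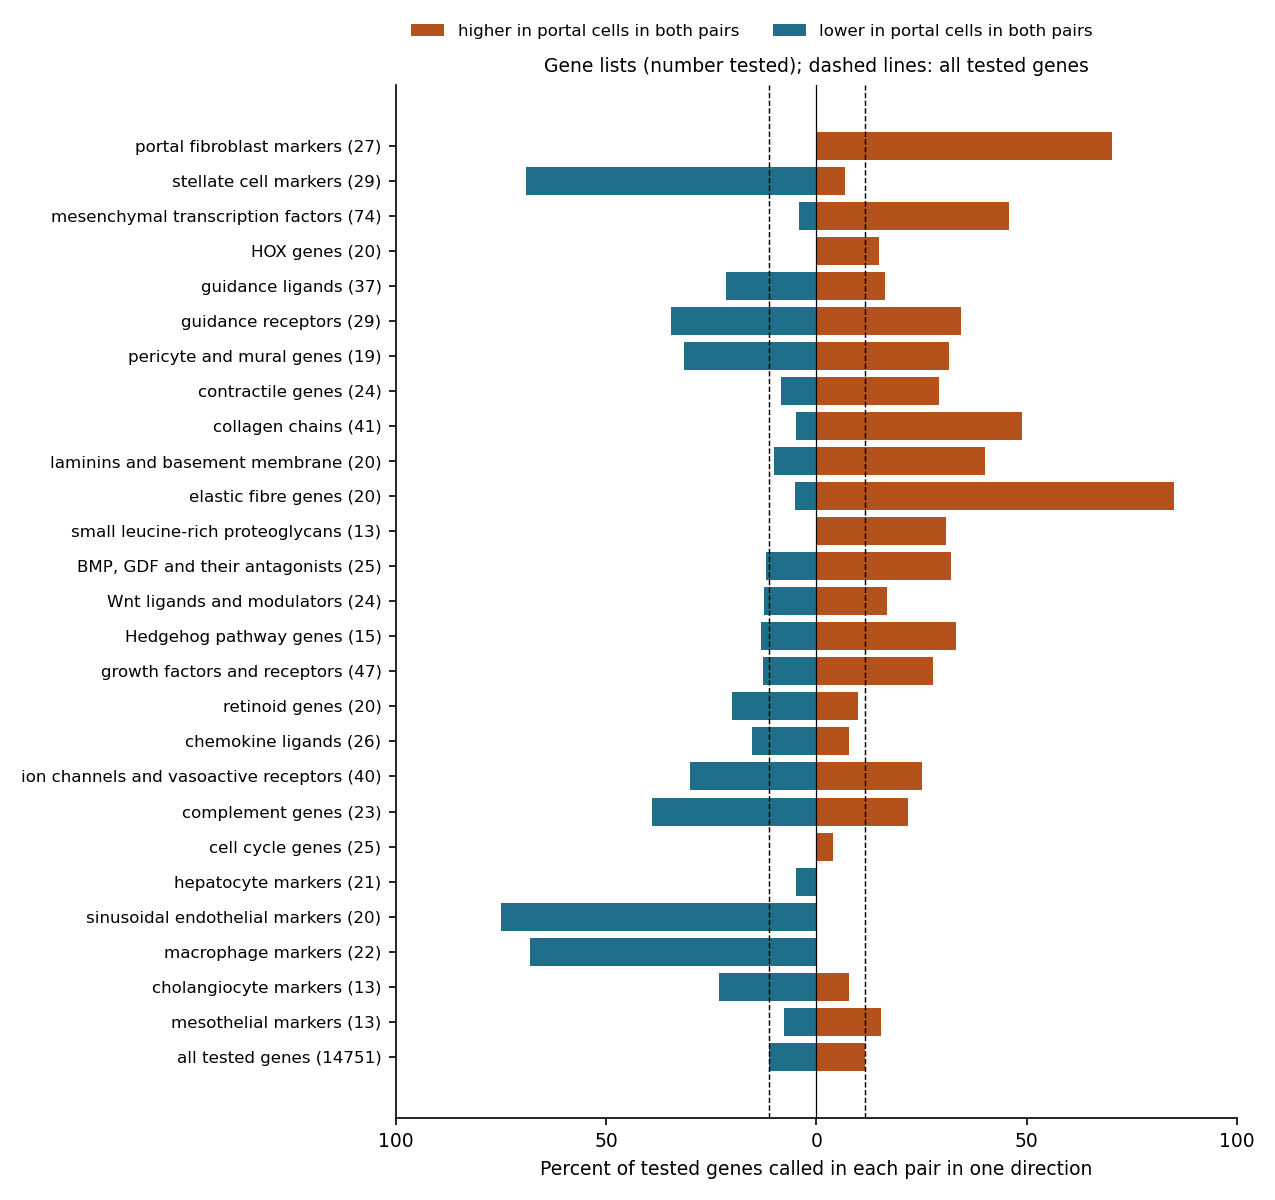
Percent of the tested genes of each list called in each pair in one direction, to the right for higher and to the left for lower in portal cells, with the number tested in parentheses and dashed lines at the values of all tested genes (11.5% and 11.3%). Elastic fibre genes and portal markers reach furthest to the right, and endothelial, stellate and macrophage markers furthest to the left.

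Among 74 mesenchymal transcription factors, 34 were higher in portal cells in both pairs and 3 were lower, with a median of 2.13 fresh (1.73 with genes lacking counts in a group set at their bound) and 1.26 cultured. Osr1, a zinc finger factor of the embryonic mesoderm, measured 12, 21.5, 34.9 and 21.8 CPM in PMSCs and 49.7, 45.4, 65.3 and 60.1 CPM in PMSC-MFs-7d. HSC-MFs-7d held 2.1, 1.22, 1.91 and 1.12 CPM and HSCs a single count, a fresh ratio of 1424 (95% counting interval 255 to 56305). The cultured difference was 5.13 ± 0.28, and the main effect of 7.59 was 8.48 without HSCs replicate 3. Ebf1, a factor of stromal and B cells, differed by 8.41 ± 0.48 and 3.94 ± 0.36, and Sox9, a factor of cartilage and of bile duct cells, by 4.11 ± 0.36 and 3.49 ± 0.38. Prrx1, a homeobox factor of fibroblasts, differed by 6.2 ± 0.29 fresh and stood at 320.4 ± 125 CPM in PMSC-MFs-7d and 43.3 ± 8.96 in HSC-MFs-7d, a difference of 2.89 ± 0.22.

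The 3 factors on the stellate side were Lhx2, Nr1h4 and Hlx. Lhx2, a LIM homeobox factor tied to the quiescent state of stellate cells, measured 119, 167, 214 and 185 CPM in HSCs and 17.4, 10.4, 9.09 and 32.4 CPM in PMSCs. In culture it measured 24.6, 28.4, 24.9 and 28.2 CPM in HSC-MFs-7d and 3.11, 3.87, 2.53 and 1.87 CPM in PMSC-MFs-7d. Its difference was -3.29 ± 0.32 fresh and -3.22 ± 0.34 cultured. Nr1h4, the bile acid receptor FXR, differed by -1.98 ± 0.21 and -0.91 ± 0.22, and Hlx by -1.96 ± 0.16 and -0.40 ± 0.16. The cultured call of Hlx was lost on leaving out any one of 12 of the 16 libraries (-0.39 to -0.26, adjusted p from 0.051 to 0.17). Of 20 HOX genes tested, 3 were higher in portal cells in both pairs and 5 were called in opposite directions, against 1936 of all 14751 tested genes. Hoxa3 was the one of the 3 with at least 10 CPM in both portal groups, at 1.80 ± 0.20 and 2.03 ± 0.20.

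Of 20 elastic fibre genes, 17 were higher in both pairs and 1 was lower, with a median of 5.28 fresh (5.04 with bounds) and 1.55 cultured. Loxl1, an oxidase that cross-links elastin, held its difference at 5.0 ± 0.22 and 5.10 ± 0.22, with 430.5 ± 74 CPM in PMSC-MFs-7d and 12.5 ± 2.38 in HSC-MFs-7d. The difference of Ltbp2, a fibrillin-binding protein, fell from 9.55 ± 0.44 to 2.36 ± 0.30. Fbln1, fibulin 1, measured 3971 ± 331 CPM in PMSCs and 13.1 ± 2.89 in PMSC-MFs-7d, and its difference shrank from 11.21 ± 0.20 to 1.53 ± 0.14. Emilin1, an elastin-associated glycoprotein, was the exception, at -1.18 ± 0.14 and -0.54 ± 0.14.

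Of 41 collagen chains, 20 were higher in portal cells in both pairs and 2 were lower, with a median of 3.02 fresh and 1.33 cultured. The fibrillar chains Col1a1 and Col1a2 differed by 2.10 ± 0.31 and 2.95 ± 0.15 in culture, after 5.14 ± 0.36 and 3.88 ± 0.16 in the fresh pair. Col15a1, a basement membrane-zone collagen, differed by 9.54 ± 0.66 and 6.87 ± 0.60. Col4a6 differed by 9.83 ± 0.31 and 3.83 ± 0.21, while Col4a1 and Col4a2, the common chains of type IV collagen, were not members. Col6a3, a chain of microfibrillar type VI collagen, had a difference that grew from 2.71 ± 0.22 to 3.70 ± 0.23. The 2 chains on the stellate side were Col24a1, at -4.90 ± 0.52 and -3.71 ± 0.49, and Col25a1, whose cultured call was lost with limma on log2(TPM + 1) (-0.21, adjusted p = 0.28).

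Of 20 laminin and basement membrane genes, 8 were higher and 2 lower in both pairs, with a median of 1.61 fresh and 0.17 cultured. Lama1, the laminin alpha 1 chain, was a stellate gene at 653 ± 139 CPM in HSCs and 2.41 ± 1.09 in PMSCs, and differed by -8.11 ± 0.33 and -3.70 ± 0.28. Lamb2 was a portal gene at 2.95 ± 0.15 and 2.01 ± 0.14. Npnt, nephronectin, a ligand of integrin alpha 8, had no count in HSCs, so PMSCs were at least 432-fold higher, and it differed by 2.5 ± 0.22 in culture. Of 13 small leucine-rich proteoglycans, 4 were higher in both pairs and 0 lower, with a median of 2.94 fresh and -0.52 cultured. Bgn, biglycan, was one of the 4, at 0.82 ± 0.13 and 0.49 ± 0.13.

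Guidance genes were divided between the origins. Of 37 ligands, 6 were higher and 8 lower in portal cells in both pairs, and of 29 receptors 10 were higher and 10 lower. Called in opposite directions were 6 of the ligands and 3 of the receptors. Slit3 was a portal gene with Slit2, at 9.61 ± 0.74 and 5.37 ± 0.65, while their receptors Robo1 and Robo2 were lower in portal cells. Robo2 measured 189 ± 39.9 CPM in HSCs and 359.6 ± 23.9 in HSC-MFs-7d against 47.2 ± 9.22 in PMSCs and 13.9 ± 5.34 in PMSC-MFs-7d, a difference that grew from -2.0 ± 0.24 to -4.70 ± 0.27. Robo1 differed by -0.55 ± 0.12 and -1.57 ± 0.12. The reelin receptor Vldlr ran opposite to Reln, at 6.29 ± 0.44 and 3.30 ± 0.34. Plxna3 was higher, at 3.53 ± 0.23 and 3.26 ± 0.22, and Plxnd1 lower, at -2.2 ± 0.17 and -2.96 ± 0.18; both are semaphorin receptors. Rgma, a ligand of neogenin, differed by 3.76 ± 0.30 and 2.85 ± 0.30.

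Of 47 growth factors and receptors, 13 were higher and 6 lower in portal cells in both pairs, and 8 were called in opposite directions. Fgf7, keratinocyte growth factor, measured 19.8, 21, 30.3 and 19.1 CPM in PMSCs and 0.302, 1.19, 0.055 and 0.131 CPM in HSCs. In culture it measured 105, 51.8, 45.1 and 48.5 CPM in PMSC-MFs-7d and 1.1, 0.709, 0.136 and 0.372 CPM in HSC-MFs-7d. The portal and stellate libraries did not overlap in either pair, and it differed by 5.72 ± 0.48 and 6.68 ± 0.45, with a main effect of 6.2 that became 6.88 without HSCs replicate 2. Vegfd, a lymphangiogenic factor, differed by 9.82 ± 0.47 and 4.06 ± 0.33.

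Hgf, hepatocyte growth factor, was the stellate counterpart. It measured 815, 1105, 1366 and 921 CPM in HSCs and 91.6, 112, 55.2 and 86.9 CPM in PMSCs, and 101, 117, 132 and 119 CPM in HSC-MFs-7d and 18.9, 4.32, 6.71 and 12.6 CPM in PMSC-MFs-7d. Its difference was -3.60 ± 0.32 fresh and -3.46 ± 0.33 cultured. Ngfr, the low-affinity nerve growth factor receptor, differed by -2.75 ± 0.31 and -4.80 ± 0.44.

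Of 25 genes of BMP and GDF ligands and their antagonists, 8 were higher and 3 lower in portal cells in both pairs. The 3 lower ones were the ligands Bmp2, Bmp5 and Bmp10, at -3.32 ± 0.20, -8.60 ± 0.45 and -11.66 ± 0.43 in culture, while Bmp4 was higher, at 1.81 ± 0.19 and 1.41 ± 0.20. The antagonists Chrd, at 5.02 ± 0.40 and 3.89 ± 0.44, Nog, at 4.49 ± 0.50 and 1.98 ± 0.33, and Fst, at 4.58 ± 0.55 and 2.60 ± 0.42, were higher. Grem1 had no count in HSCs, so PMSCs were at least 184-fold higher, and it differed by 0.88 ± 0.28 in culture, a call that was lost without PMSC-MFs-7d replicate 1 (0.48, adjusted p = 0.088).

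Of 24 Wnt genes, 4 were higher and 3 lower in both pairs, with a fresh median of 5.0 (4.05 with bounds) and a cultured median of 0.2. The portal side of this list did not hold with limma on log2(TPM + 1), which called 0 higher and 4 lower. Sfrp1, a secreted Wnt antagonist, measured 1676 ± 530.0 CPM in PMSCs and 24.4 ± 30.8 in PMSC-MFs-7d, and its main effect of 6.56 fell to 5.84 without PMSC-MFs-7d replicate 1. The cultured difference of Sfrp1, 1.91 ± 0.59, was then 0.48 and not called (adjusted p = 0.31), and it was also not called with the replicate number as a block (1.57, adjusted p = 0.06) or with limma (1.06, adjusted p = 0.069). Frzb, another Wnt antagonist, was a stellate gene, at -1.68 ± 0.33 and -4.57 ± 0.37, as was the ligand Wnt2, at -3.88 ± 0.34 and -0.91 ± 0.30. The cultured call of Wnt2 was lost without PMSC-MFs-7d replicate 1 (-0.82) or HSC-MFs-7d replicate 1 (-0.80), with an adjusted p of 0.059 each. Of 15 Hedgehog genes, 5 were higher and 2 lower in both pairs. The signal transducer Smo and the coreceptors Cdon and Boc were higher, at 1.5 ± 0.17, 1.05 ± 0.13 and 0.89 ± 0.15 in culture, and the antagonist Hhip was lower, at -3.83 ± 0.31 and -6.07 ± 0.43.

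Of 20 vitamin A genes, 4 were lower in portal cells in both pairs and 2 were higher. Another 6 were called in opposite directions in the 2 pairs, against 1936 of all 14751 tested genes. Rarb, a retinoic acid receptor, measured 95.3 ± 23.2 CPM in HSC-MFs-7d and 0.571 ± 0.302 in PMSC-MFs-7d, and its difference grew from -1.96 ± 0.21 to -7.38 ± 0.28. The 2 higher ones make retinoic acid: Aldh1a2, at 5.84 ± 0.92 fresh and 2.66 ± 0.68 cultured, and Aldh1a3, at 0.95 ± 0.31 and 2.97 ± 0.36. The PMSC and HSC libraries overlapped for Aldh1a3, and its fresh call was lost with library totals (0.62, adjusted p = 0.088), with limma (0.49, adjusted p = 0.12) and without PMSCs replicate 3 (0.69, adjusted p = 0.054). The stellate marker Plin2, a coat protein of lipid droplets, measured 273 ± 24.7 CPM in HSCs and 339 ± 16.3 in HSC-MFs-7d, against 23 ± 2.29 in PMSCs and 55.5 ± 12.1 in PMSC-MFs-7d.

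Of 24 contractile genes, 7 were higher and 2 lower in portal cells in both pairs. Acta2, the smooth muscle actin that defines myofibroblasts, stood at 6059.6 ± 398 CPM in PMSC-MFs-7d and 3218 ± 372 in HSC-MFs-7d, and its difference shrank from 4.49 ± 0.22 to 0.91 ± 0.19. Sorbs2, an adaptor of actin stress fibres, was on the stellate side at -2.72 ± 0.44 and -2.66 ± 0.35. Of 19 pericyte and mural genes, 6 were higher and 6 lower, but with library totals 3 were higher and 7 lower. Kcnj8 and Abcc9, the subunits of a pericyte potassium channel, were lower in portal cells, at -2.89 ± 0.23 and -0.99 ± 0.27 fresh and -5.03 ± 0.41 and -5.60 ± 0.38 cultured. Notch3, a receptor of vascular smooth muscle, was higher, at 1.89 ± 0.37 and 2.39 ± 0.42.

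Of 40 ion channels and vasoactive receptors, 10 were higher and 12 lower in portal cells in both pairs. The prostaglandin E2 receptor Ptger2, at -6.65 ± 0.32 and -6.93 ± 0.35, the angiotensin receptor Agtr1a, at -2.99 ± 0.27 and -4.59 ± 0.33, and the endothelin receptor Ednrb, at -2.65 ± 0.29 and -6.65 ± 0.48, were stellate genes. The calcium channel gene Cacna1g had no count in HSCs, so PMSCs were at least 2924-fold higher, and it differed by 5.71 ± 0.31 in culture. Of 23 complement genes, 5 were higher and 9 lower in both pairs, and 5 were called in opposite directions. The lower ones include C1qa, C1qb and C1qc, which macrophages express, with HSCs above PMSCs by 532-, 609- and 1045-fold and HSC-MFs-7d above PMSC-MFs-7d by 33.4-, 32.4- and 36.9-fold on 4 or 5 counts in PMSC-MFs-7d. Summed macrophage markers were 3797 to 13311 CPM in HSCs and 52.2 to 101 CPM in PMSCs, and their part in this count was not tested. C3, the central complement component, measured 12802 ± 2702 CPM in PMSCs and 32.2 ± 28.9 in PMSC-MFs-7d, and differed by 6.16 ± 0.87 from HSC-MFs-7d, where it measured 0.45 ± 0.134. Masp1, a protease of the lectin pathway, was a stellate gene, at -3.10 ± 0.26 and -5.56 ± 0.29.

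Of 26 chemokine ligands, 2 were higher and 4 lower in both pairs. Cxcl14 was lower at -1.22 ± 0.40 fresh and -6.19 ± 0.50 cultured, and Ccl7 higher at 6.08 ± 0.38 and 1.01 ± 0.32. The cultured call of Ccl7 was lost without PMSC-MFs-7d replicate 4 (0.80, adjusted p = 0.066) or HSC-MFs-7d replicate 2 (0.94, adjusted p = 0.058). Of 25 cell cycle genes, 1 was called in one direction in both pairs (E2f1, higher, at 1.16 ± 0.19 and 0.67 ± 0.17) and 20 were called in opposite directions, with a median of -1.57 fresh and 0.9 cultured. Over all 14751 tested genes, 1936 were called in opposite directions.

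Some genes on the stellate side also mark other liver cells. Of 20 sinusoidal endothelial markers, 15 were lower in portal cells in both pairs and 0 higher, and of 22 macrophage markers 15 were lower and 0 higher. The summed macrophage markers ranged from 3797 to 13311 CPM in HSCs and from 52.2 to 101 CPM in PMSCs. In culture they ranged from 42.1 to 76.8 CPM in HSC-MFs-7d and from 14.7 to 19 CPM in PMSC-MFs-7d. The summed endothelial markers ranged from 14198 to 17405 CPM in HSCs, 790 to 1218 in PMSCs, 941 to 1026 in HSC-MFs-7d and 415 to 698 in PMSC-MFs-7d. In HSC-MFs-7d 706 ± 37.9 CPM of that sum was Eng, an endothelial and mesenchymal coreceptor, at -1.08 ± 0.11 against PMSC-MFs-7d. Hepatocyte markers ranged from 5150 to 25178 CPM in HSCs and from 1286 to 2291 in PMSCs, and 1 of 21 was called lower in both pairs. Most of the PMSC sum was Cyp2e1 and Trf, at means of 815 and 801 CPM. Cyp2e1 ran the other way from the sum, with 164 CPM in HSCs, and Trf stood at 1954 CPM there. Alb stood at 65.4 CPM in PMSCs and 6463 CPM in HSCs. On the portal side, summed Schwann and glial markers ranged from 477 to 736 CPM in PMSCs and from 23.4 to 60.4 in HSCs, and from 7.2 to 9.86 CPM in PMSC-MFs-7d and from 2.87 to 5.57 in HSC-MFs-7d. Mesothelial markers ranged from 99.7 to 159 CPM in PMSCs, 20.9 to 80.3 in HSCs, 74.4 to 134 in PMSC-MFs-7d and 22.5 to 41.3 in HSC-MFs-7d. In each direction 1 of 8 Schwann markers was called in both pairs, and 2 of 13 mesothelial markers were called higher and 1 lower. The part of these cells in the portal genes was not tested.

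Plvap, a component of endothelial diaphragms, is on none of these lists. It measured 2462, 3306, 3344 and 2559 CPM in HSCs and 110.0, 176, 156 and 186 CPM in HSC-MFs-7d, and 58.4, 31.1, 18.4 and 19.4 CPM in PMSCs and 1.19, 0.326, 1.32 and 0.636 CPM in PMSC-MFs-7d. The endothelial adhesion gene Pecam1 measured 420.0, 372, 384 and 420.0 CPM in HSCs and 1.74, 1.87, 2.45 and 2.39 CPM in HSC-MFs-7d. From HSCs to HSC-MFs-7d the mean of Plvap went from 2918 to 157 CPM, that of Pecam1 from 399 to 2.11, that of Cdh5 from 619 to 3.44 and that of Stab2 from 1425 to 1.02. The macrophage gene Adgre1 went from 308 to 0.885 CPM (main effect -8.61, and -9.41 without PMSCs replicate 1; that of Cdh5 was -6.74, and -7.40 without PMSC-MFs-7d replicate 2), and Hcls1, a leukocyte cortactin homologue, from 79.2 ± 27.7 to 42 ± 2.97. Esam, an endothelial and stellate adhesion molecule, went from 241 ± 21.3 to 77.1 ± 8.41 CPM. The part of other cells in the fresh differences of these genes was not tested.

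**Figure D5:**
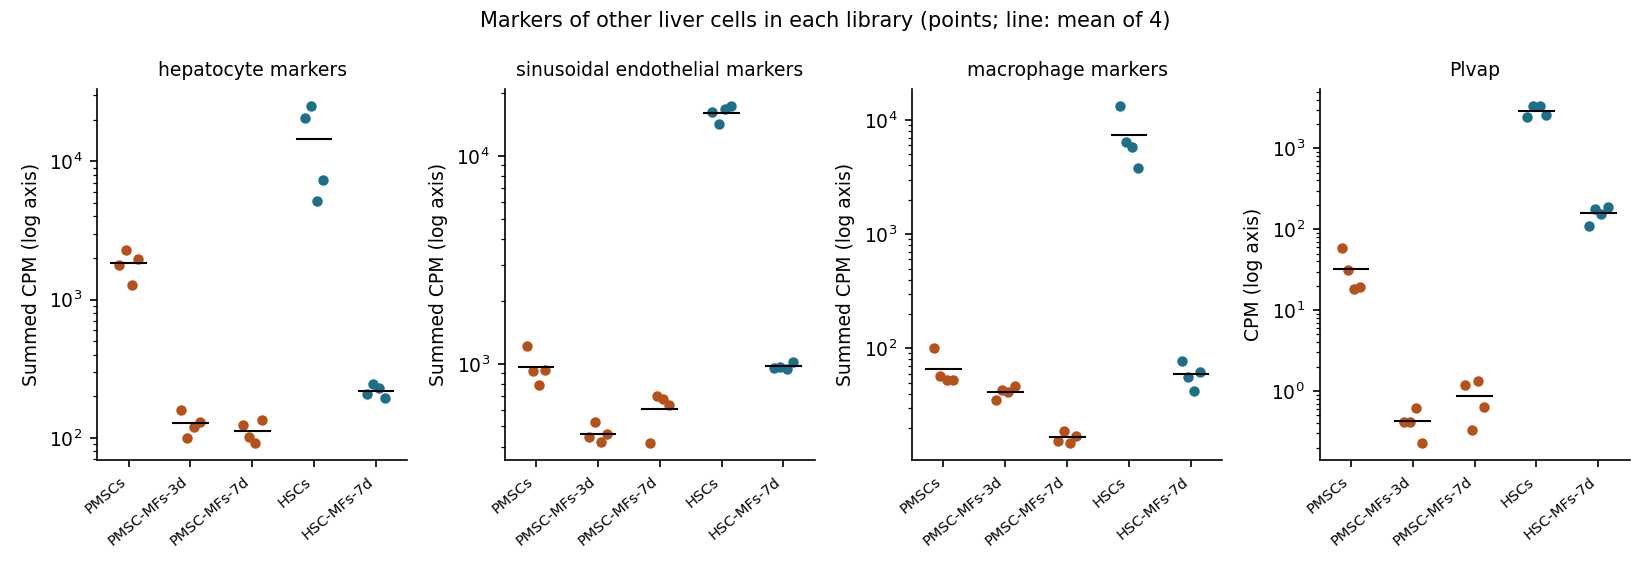
Summed CPM of hepatocyte, endothelial and macrophage markers and the CPM of Plvap in each library on log axes, with a point per library and a line at the mean of 4. All 3 sums were highest in the HSC libraries, and the HSC-MFs-7d libraries held 110 to 186 CPM of Plvap beside macrophage sums of 42.1 to 76.8 CPM.

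Whether the difference changed with culture was tested as the cultured difference less the fresh one, which was called in 8943 genes, or 60.6%. The uncertain culture time of HSC-MFs-7d bears on this test too. Among members it was smaller in culture in 3043, larger in 731 and not called in 3189. Of the genes called higher in both pairs, 751 had a smaller and 144 a larger difference, and the median size was 1.58 fresh and 1.04 cultured. Of those called lower in both, 563 had a smaller and 223 a larger difference, and the median size was 1.31 and 0.91.

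The 6 members with the largest growth were Hmcn1, Bmp5, Rarb, S100a16, Ly6a and P2ry14. Hmcn1, the basement membrane protein hemicentin 1, measured 133 ± 4.57 CPM in PMSCs and 153 ± 31.3 in HSCs, which was not called, and 0.838 ± 0.285 in PMSC-MFs-7d against 121 ± 24.1 in HSC-MFs-7d. S100a16, a calcium-binding protein, was also not called in the fresh pair, and differed by 5.58 ± 0.23 in culture, where HSC-MFs-7d held 1.55 ± 0.365 CPM. P2ry14, a receptor of UDP-sugars, measured 457 ± 9.24 CPM in HSC-MFs-7d and 80.8 ± 14 in HSCs. Ly6a, which encodes the stem cell antigen Sca-1, measured 184 ± 54.1 CPM in HSCs and 0.486 ± 0.178 in HSC-MFs-7d.

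The 6 members with the largest loss were Ptx3, Pdpn, Mum1l1, Sfrp1, Mmp16 and Wisp2, all higher in PMSCs and nearly absent from HSCs. In this order the HSC libraries held 3, 6, 2, 47, 0 and 0 counts of them. Apart from Sfrp1, the size of the loss and the order rest on fitted values from very few counts. Pdpn, podoplanin, measured 0.0905 ± 0.181 CPM in HSCs and 118 ± 22.2 in HSC-MFs-7d against 319.8 ± 28.6 in PMSC-MFs-7d, and its cultured difference was 1.44 ± 0.25. Its main effect of 6.13 was 8.12 without HSCs replicate 1, the only HSC library with counts of it. Ptx3, a soluble pattern recognition protein, had a fresh ratio of 5325 (95% counting interval 1822 to 25827) and a cultured difference of 2.62 ± 0.38. Mum1l1 had a fresh ratio of 969 (interval 268 to 8007) and a cultured difference of 0.29 ± 0.12 that was not called (adjusted p = 0.059). Mmp16, a membrane matrix protease, was at least 464-fold higher in PMSCs and differed by 3.02 ± 0.16 in culture.

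PMSC-MFs-3d did not enter the rule, and its levels are given as a description, since the stellate groups beside it are those that chose the members and the times differ by the titles. Thy1 measured 59.1, 72.7, 59.3 and 88.6 CPM and Mgp 64.1, 30.6, 37.6 and 46.2 CPM in the 4 libraries, above all stellate libraries. Eln measured 19.7, 7.65, 13.8 and 14.3 CPM, above the HSC-MFs-7d libraries and overlapping with the HSC libraries. Reln measured 1.64, 3.07, 3.01 and 2.6 CPM, Rgs5 0.342, 0, 0.624 and 0.113 CPM and Bmp10 0.114, 0.15, 0.22 and 0.0752 CPM, below all stellate libraries. These genes are among the largest differences and do not stand for all members. Without overlap with HSC-MFs-7d, the PMSC-MFs-3d libraries lay on the side of the main effect for 62.9% of higher and 59.9% of lower members. They lay wholly on the opposite side for 220 higher and 239 lower members. Wnt2, a gene called lower in portal cells in both pairs, stood at 35.6 ± 3.69 CPM in PMSC-MFs-3d and 14.1 ± 2.23 in HSC-MFs-7d, with every PMSC-MFs-3d library above every HSC-MFs-7d library.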

How the data were processed

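Libraries were grouped by their titles. Per the labels' protocols, the kits were RNeasy Micro for RNA and KAPA Stranded mRNA-Seq for libraries. The submitters' processing notes name RSEM 1.2.28, STAR 2.5.3a, Trimmomatic, FastQC and mm10. The deposited expected counts are RSEM estimates per gene, not normalised, per the file headers. The deposited TPM values are scaled per library, per the file headers, and were used in an alternative.

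After rounding, expected counts entered edgeR 4.0.16 (R 4.3.3) (filterByExpr, TMM, robust quasi-likelihood fit with a mean for each of 5 groups over 20 libraries, Benjamini-Hochberg adjustment over all 14751 tested genes). The SE is the log2 fold change over the square root of F. DESeq2 1.42.0 and limma 3.58.1 on log2(TPM + 1) were alternatives, and the test was tried on simulated data. Replicate numbers did not pair libraries.

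The members and the 28 gene lists were chosen with earlier results of these data known. Named genes were, by a rule, 12 per direction by the smaller of the 2 differences (at least 20 CPM, no overlap), up to 4 per list (at least 10 CPM) and 6 each by growth or loss in culture. Other list members were named after their values were seen, and some genes the rule picked are not reported here. A group without counts was set at 3 counts over its 4 libraries, and with 1 to 3 counts a 95% exact interval is given, both covering counting error only. RefSeq symbols matched 14460 tested genes (98.0%). Genes with near-identical copies are uncertain, since RSEM divides shared reads. Isolation and sorting are not given in the sources used here.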

Additional observations from a re-analysis of the deposited data

Results flagged for a closer look

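For 17 genes given library by library, 81 groups of 4 libraries were checked for a library standing apart from the other 3. Chance alone marks about 1 group in 20 where values spread normally. That rate does not hold for groups with very few counts, where 1 library holding nearly all of them is marked by that alone. One library was the highest by a wide margin for Mgp in HSCs (0.845 CPM) and in HSC-MFs-7d (1.37 CPM), for Hspb7 in HSCs (0.536 CPM), for Eln in HSC-MFs-7d (2.84 CPM), for Bmp10 in PMSC-MFs-7d (0.204 CPM) and for Adgre1 in PMSCs (0.865 CPM). In each of these the library stood apart in the group with the low level. One library was also the highest for Osr1 in PMSC-MFs-3d (36.2 CPM), Fgf7 in PMSC-MFs-7d (105.0 CPM) and Rspo3 in PMSC-MFs-7d (4.53 CPM), and the lowest for Rspo3 in HSCs (270.0 CPM).

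The origin difference changed with culture, by the edgeR test of the cultured less the fresh difference, for 4 of these genes. On the log2 scale, portal over stellate, the change was -6.63 for Slit2, -4.93 for Osr1, -1.18 for Rgs5 and -4.64 for Bco1. For Slit2 and Osr1 this is a smaller difference in culture and rests on 1 count in HSCs, and for Rgs5 and Bco1 a larger one.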

How the results depend on the processing

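The counts of members and of genes called in each pair stayed within 1.5 times under the other scaling, tool, filter, sample set and unit. They moved only when a log2 fold change of at least 1 in both pairs was also asked for: 940 members were then higher and 987 lower, 762 and 688 genes were called higher and lower in each pair, and 611 members had a smaller and 168 a larger difference in culture. The genes behind these counts changed more than the counts did. Of the 1696 genes called higher in each pair, library totals kept 1323 and limma 1169. Of the 1673 called lower, they kept 1647 and 1526. Of the 731 members with a larger difference in culture, library totals kept 367, limma 289 and DESeq2 622. For single named genes the change with culture was not tested under the alternatives. With each of 16 libraries left out in turn, members higher ranged from 3242 to 3382 and lower from 3596 to 3728, genes called in each pair from 1547 to 1718 higher and from 1501 to 1745 lower, and members with a smaller difference in culture from 2842 to 3030 and with a larger one from 640 to 775. The replicate number as a block gave 3257 and 3670 members, 1632 and 1653 genes called in each pair and 2995 and 717 with a smaller and larger difference; same-numbered libraries correlated between -0.083 and 0.157, and at most 1 of 4 libraries correlated best with its own number, so the numbers do not pair them. The main effect of the 121 genes checked kept its sign under these alternatives, and that of Pdgfrb alone lost its call, with limma on log2(TPM + 1) (0.24, adjusted p = 0.0698). Calls of these genes in a single pair kept their sign too, but 39 of 5497 were lost, in 8 genes (Pdgfrb, Hlx, Sfrp1, Aldh1a3, Wnt2, Ccl7, Grem1 and Col25a1). The replicate block ended the cultured calls of Hlx (-0.40, adjusted p = 0.061), Pdgfrb (0.41, adjusted p = 0.051) and Sfrp1. Main effects that moved by over 1.5 times when a library was left out stand beside the genes named in the text. Among genes checked but not named above, Mfap5 moved from 5.57 to 4.93 without PMSCs replicate 3. Gas1 moved from 3.62 to 2.98 without PMSC-MFs-7d replicate 1, and Nkain4 from 5.7 to 7.57 without HSCs replicate 3. The cause of these moves was not tested.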
